A study of Rattus norvegicus with 36 samples.

Results

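The genes described here are the nuclear-encoded genes of the mitochondrial respiratory chain in rat lung: the rows of the deposited table whose gene names begin with Nduf, Uqcr, Atp5 or Cox4 to Cox8, or are Sdha, Sdhb, Sdhc or Sdhd. The rule found 54 of 27308 genes, and 52 of them passed the filter on low counts that left 15570 genes for testing. The data are 36 RNA-seq libraries of rat lung, in 3 arms of 12 libraries with 6 males and 6 females each. All arms carried the huSlc39a12 allele, a knock-in on the Sprague Dawley background in which human Slc39a12, which encodes the zinc transporter ZIP12, replaces its rat counterpart. Animals were adult and weighed 200 to 240 g. The normoxic arm has no antibody in its labels. The hypoxic arms breathed 10% oxygen at normal pressure for 2 weeks and were injected intraperitoneally with either control IgG or the anti-ZIP12 antibody APL-9796, at 10 mg/kg, from 48 h before hypoxia and then every 3 days. When the IgG arm is set against normoxia, hypoxia and IgG therefore cannot be told apart. Whether the libraries come from separate animals is not stated in the labels, so the p-values rest on the spread between libraries, which may be technical.

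The respiratory chain passes electrons from NADH and succinate to oxygen. Complex I (the Nduf genes) takes electrons from NADH, complex II (Sdha to Sdhd) from succinate, complex III (the Uqcr genes) hands them to cytochrome c, and complex IV (the Cox genes) to oxygen, while ATP synthase (the Atp5 genes) uses the resulting proton gradient. Some complex IV subunits exist as tissue isoforms: Cox4i2 is the isoform of subunit IV known from lung, while Cox6a2 and Cox8h are the heart and muscle isoforms of subunits VIa and VIII. The 54 genes comprise 24 complex I subunits, the complex I assembly factor Ndufaf1, 4 genes each of complexes II and III, 11 of complex IV, 8 of ATP synthase and 2 that encode no subunit, Atp5s and the transcribed pseudogene Cox6c1. The 2 genes that did not pass the filter were Cox6c1, which had 0 counts in every library, and Cox6b, whose level lay between 0 and 1.25 CPM (counts divided by the scaled library total in mega-counts, M). Genes of these complexes without a row under such a name, and the chain genes of mitochondrial DNA, were not analysed here. Cox4i1, the other isoform of subunit IV, had no row under that name, so it could not be compared with Cox4i2.

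Promoter sequences were found for 48 of the 54 genes, in the RefSeq table of the GRCr8 build that gives 250 bases before and 50 after each gene's start. Cox4i2, Cox6a1, Cox6c, Ndufb9, Ndufa8 and Cox6c1 had no entry. The sequences below are read 5′ to 3′ on the gene's strand, with every match to a searched motif, on either strand, in capitals. They set the broadly expressed isoform Cox8a beside its muscle counterpart Cox8h (current symbol Cox8b), and add Sdha and Ndufs1, which fell in one of the comparisons below. Cox8a lies at chr1:213833574-213833873 on the minus strand, Cox8h at chr1:205408224-205408523 on the minus strand, Sdha at chr1:30764303-30764602 on the plus strand and Ndufs1 at chr9:72073556-72073855 on the minus strand.
Cox8a: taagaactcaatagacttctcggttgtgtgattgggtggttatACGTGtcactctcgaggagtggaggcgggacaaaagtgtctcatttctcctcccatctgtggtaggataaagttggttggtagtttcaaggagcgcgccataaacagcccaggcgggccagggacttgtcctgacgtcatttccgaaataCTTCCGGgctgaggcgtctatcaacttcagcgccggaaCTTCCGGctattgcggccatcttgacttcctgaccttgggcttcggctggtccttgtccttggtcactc
Cox8h: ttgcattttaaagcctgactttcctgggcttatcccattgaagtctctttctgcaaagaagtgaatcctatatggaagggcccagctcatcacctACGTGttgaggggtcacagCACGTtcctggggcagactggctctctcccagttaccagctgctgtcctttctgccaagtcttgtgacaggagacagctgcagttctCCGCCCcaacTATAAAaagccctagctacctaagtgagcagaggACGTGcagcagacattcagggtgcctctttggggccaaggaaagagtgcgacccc
Sdha: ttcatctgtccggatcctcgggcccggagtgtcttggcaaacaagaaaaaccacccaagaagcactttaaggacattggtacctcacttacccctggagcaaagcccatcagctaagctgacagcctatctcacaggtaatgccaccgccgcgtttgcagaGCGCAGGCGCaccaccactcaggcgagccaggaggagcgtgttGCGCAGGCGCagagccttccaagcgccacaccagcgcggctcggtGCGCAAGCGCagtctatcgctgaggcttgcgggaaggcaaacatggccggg
Ndufs1: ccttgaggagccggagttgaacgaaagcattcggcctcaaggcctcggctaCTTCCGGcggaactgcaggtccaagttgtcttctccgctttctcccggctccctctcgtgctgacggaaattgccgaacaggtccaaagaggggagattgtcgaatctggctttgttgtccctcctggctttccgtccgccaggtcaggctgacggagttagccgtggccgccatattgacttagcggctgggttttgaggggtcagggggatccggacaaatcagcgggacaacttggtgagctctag
The motifs searched were GCGCA, any base and GCGC for nuclear respiratory factor 1 (NRF1), CCGGAAG for the ETS factors that include GABP, the Sp1 box GGGCGG, the hypoxia response core ACGTG and the TATA box TATAAA, each on both strands. In the promoters printed here no match overlapped another. The Sdha promoter held 3 NRF1 matches, and Cox8a held 2 ETS matches with 1 ACGTG. Ndufs1 held 1 ETS match. Cox8h held neither of those factors' motifs, but a TATA box, an Sp1 box and 3 ACGTG matches.

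Across the 48 promoters the NRF1 motif occurred in 10 (20.8%), against 4.7% of all 27456 promoters and 6.1% of the 19005 of protein-coding genes. The ETS motif occurred in 15 (31.2%), against 9.2% of all promoters and 11.2% of protein-coding ones. The Sp1 box was present in 22 (45.8%, against 34.9% and 43.1%) and ACGTG in 12 (25%, against 19.7% and 20.4%). A TATA box was present in 2, Ndufa2 and Cox8h (4.2%, against 14.3% and 13.1%). Median GC content was 56.0% in the members and 55.3% in protein-coding promoters. These are matches of letters in a fixed window and do not show binding.

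Total counts per library ran from 6.07 M to 20.8 M, with a median of 11.1 M. The respiratory chain genes together took 0.345% to 0.572% of the counts in normoxia, 0.348% to 0.547% in the IgG arm and 0.334% to 0.473% in the APL-9796 arm, so the arms overlapped. Markers of lung were present throughout: the summed level of 5 alveolar type II genes lay between 12785 and 42171 CPM. By the pool and flow cell named for their reads, libraries fell into 3 groups of 26, 9 and 1 libraries. These are here called sequencing runs A, B and C, and the single library of run C was female normoxia 8. Runs were uneven over the arms and sexes: run B held 4 of the 6 female IgG libraries and 0 male normoxia libraries. Run therefore cannot be fully told apart from arm and sex. Levels are given below as CPM scaled by TMM factors. They are not divided by gene length and are compared between libraries, not between genes. In bulk tissue, fewer cells of a type and less RNA per cell cannot be told apart.

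A few libraries stood apart in most of these genes. The mean log2 CPM over the chain genes was 6.42 in female normoxia 8, 6.32 in female IgG 11, 6.23 in female normoxia 9, 6.21 in male APL-9796 4 and 6.17 in male IgG 6, and at most 5.95 in each of the other libraries. Female normoxia 8 and 9 also had the highest summed type II markers, 31443 and 42171 CPM, against a normoxic median of 18338 CPM. Female normoxia 9 had the lowest summed heart muscle markers, 12.2 CPM, while male IgG 6 and female IgG 11 had the highest of their arm, 1250 and 754 CPM, against a median of 177 CPM. Male IgG 6 also led its arm in fat markers, at 754 CPM against a median of 191 CPM. Male APL-9796 5 had summed skeletal muscle markers of 2677 CPM, against at most 43.9 CPM in the rest of its arm and 88.6 CPM, in male IgG 6, in the other arms. The part of these markers in the results was not tested. For each comparison of arms the counts are also given without female normoxia 8 and 9 and without male APL-9796 5, male IgG 6 and female IgG 11.

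**Figure D1:**
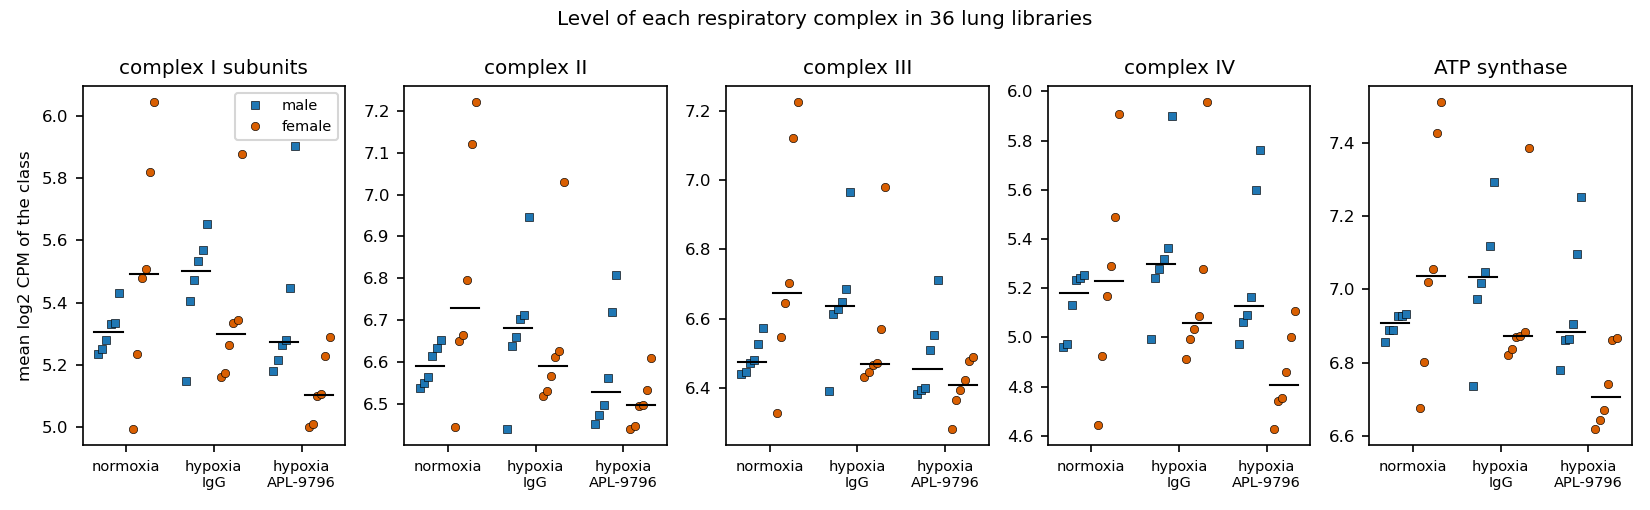
Mean log2 CPM of the genes of each complex (vertical axis, log2 CPM) in 36 libraries, by arm; squares are males, circles are females and bars are medians of 6 libraries. Female normoxia 8, female IgG 11 and male IgG 6 are among the highest 5 libraries in every panel, and male APL-9796 4 is the highest of its arm except in complex III, where it lies at 6.51 and male APL-9796 5 at 6.71.

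The genes rose and fell together from library to library. After the mean of each arm and sex was removed, a member's level had a median Spearman coefficient of 0.79 with the mean of the 50 subunit genes that passed the filter, while the other tested genes had a median of -0.03. This describes 36 libraries, and each member except Ndufaf1 and Atp5s is itself part of the mean. Several members stood lower: Ndufaf1 at 0.15, Uqcrc2, Cox4i2 and Ndufs1 at 0.42, Ndufv1 at 0.44, Cox6a2 at 0.48 and Sdha at 0.50. The genes outside the name rule with the most similar pattern, by the same coefficient over 36 libraries, were 5 without a name, led by rCG_33654 (0.94) and rCG_51192 (0.92), and Qpc (0.89), which the table describes as a low molecular mass ubiquinone-binding protein and RefSeq now names Uqcrq. The median biological coefficient of variation was 0.184 in the members and 0.163 in all genes tested.

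**Figure D2:**
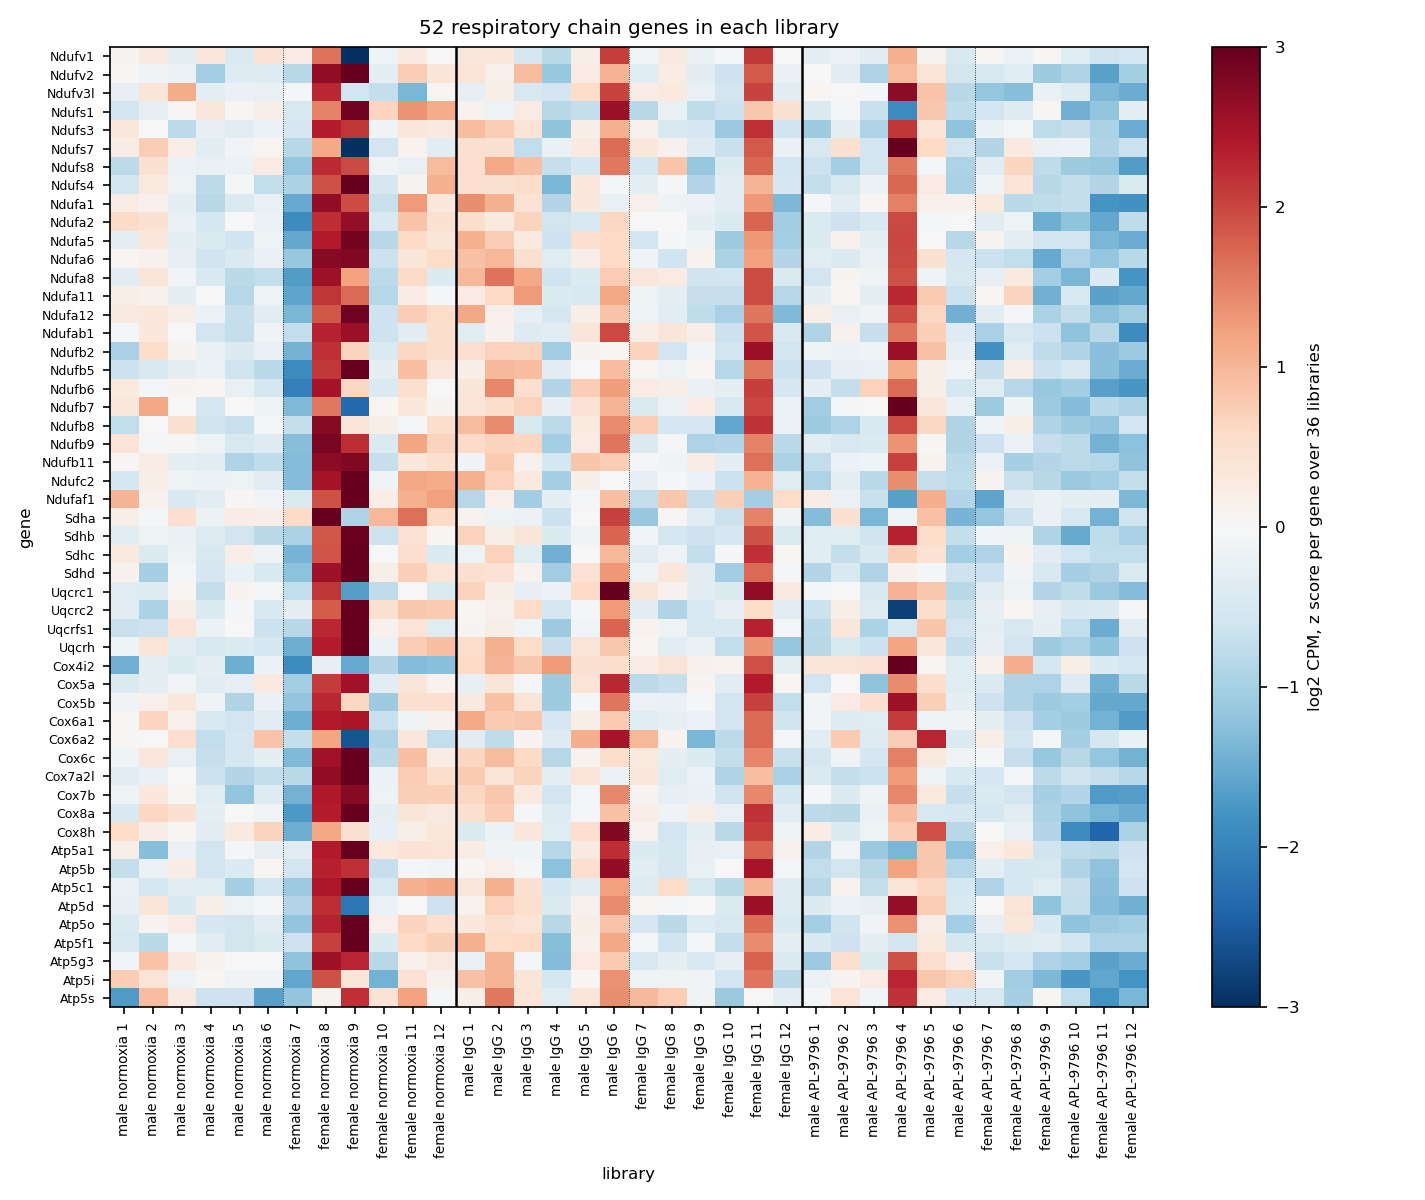
Level of 52 chain genes (rows, ordered by complex) in 36 libraries (columns, by arm and sex), as the z score of log2 CPM over the libraries for each gene. Most genes are red in female normoxia 8 and 9, male APL-9796 4, male IgG 6 and female IgG 11, with single genes blue, such as Ndufs1 and Uqcrc2 in male APL-9796 4 and Ndufv1 and Uqcrc1 in female normoxia 9, while the row of Cox4i2 is blue across most normoxic libraries.

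In the IgG arm against normoxia, which asks what chronic hypoxia changes, 1 chain gene rose and none fell. Cox4i2 (rCG_37492), the lung isoform of complex IV subunit IV, was the one that rose. It ranged from 21.8 CPM (female normoxia 7) over a median of 25.9 to 31.1 CPM (male normoxia 6) in normoxia, and from 30.6 (female IgG 12) over 35.8 to 48.5 CPM (female IgG 11) under IgG. The arms overlapped by little: 11 of 12 IgG libraries lay above the highest normoxic one, and 12 of 12 above the normoxic mean of their sex. The means were 26.8 ± 3.45 CPM in normoxia and 37.0 ± 4.85 CPM under IgG (SD, n = 12 each), a log2 difference of 0.46 with a standard error of 0.09 (edgeR quasi-likelihood test, FDR = 0.000525). Over all genes tested, 12.5% were called in this comparison at FDR below 0.05, 6.31% higher and 6.19% lower, so 1 of 52 chain genes lies below the background share. No gene of the set separated the arms fully, against 0.771% of all genes.

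Cox4i2 was also high under APL-9796, from 28.9 CPM (female APL-9796 9) over a median of 33.5 to 61.8 CPM (male APL-9796 4). Of these 12 libraries, 8 lay above the highest normoxic one and 12 above the normoxic mean of their sex. The mean was 35.4 ± 8.96 CPM (SD, n = 12), 0.39 above normoxia on the log2 scale with a standard error of 0.09 (edgeR, FDR = 0.00242). This comparison shares the normoxic libraries with the previous one. The difference between APL-9796 and IgG was -0.07 with a 95% interval from -0.25 to 0.12 (edgeR, FDR = 0.973). The rise under IgG was 0.43 in males and 0.49 in females, and the difference of these, 0.06 with a standard error of 0.18, was not significant (edgeR, FDR = 0.897).

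Cox4i2 is known in mural cells of lung vessels as well, and several but not all markers of these cells also rose in the IgG arm. Of 8 pericyte genes tested, a list that includes Cox4i2 itself, 5 rose and 1 fell in the IgG arm. Over all genes, 6.31% were called higher and 6.19% lower. Higd1b rose by 0.53, Kcnj8, a potassium channel subunit, by 0.47, Notch3, the receptor of mural cells, by 0.74 and Postn, periostin, by 0.38 on the log2 scale, while Rgs5, a regulator of G protein signalling, fell by 0.56 (edgeR, FDR of at most 0.000934 each). The summed level of the 7 pericyte rows without Cox4i2 had a median of 1159 CPM in normoxia (957.97 to 1282), 1472 CPM under IgG (1097 to 1800) and 1562 CPM under APL-9796 (967 to 1945). All 6 smooth muscle genes tested rose as well. In the 2 libraries with the highest Cox4i2, male APL-9796 4 and female IgG 11, the summed pericyte level was the lowest of its arm. The part of mural cell content in the Cox4i2 result was not tested.

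**Figure D3:**
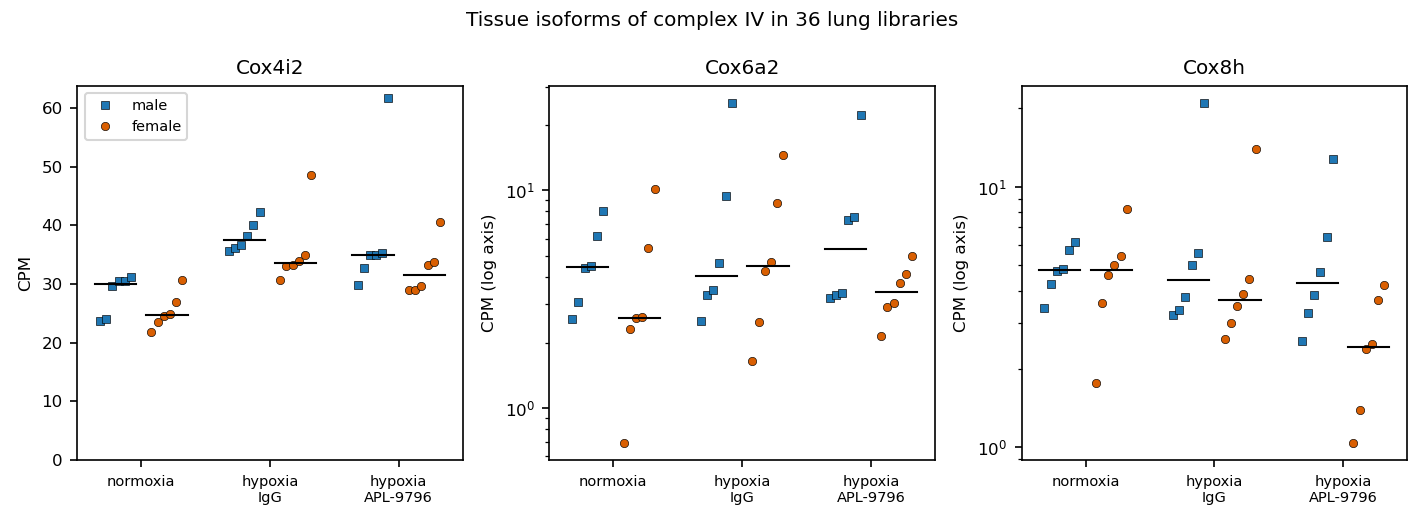
CPM of Cox4i2, Cox6a2 and Cox8h (vertical axes; log axes for the last 2) in 36 libraries by arm; squares are males, circles are females and bars are medians of 6 libraries. For Cox4i2, 11 of 12 IgG libraries lie above the highest normoxic library, while Cox6a2 and Cox8h overlap between arms and are set apart in single libraries such as male IgG 6.

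The rest of the chain gave no call under IgG. Of the 24 complex I subunits, 9 were fitted above 0 and 15 below, with a median log2 difference of -0.02 and a range from -0.17 to 0.15. Complex II had a median of -0.07, complex III of -0.07, complex IV of -0.00 and ATP synthase of -0.04. The median of all 52 was -0.03, close to the -0.02 of all genes tested, and 3 of 52 had an unadjusted p below 0.05, against 25.9% of all genes. Besides Cox4i2 these were Uqcrc1, a core protein of complex III, and Ndufaf1. Uqcrc1 ranged from 93.5 over a median of 110 to 153 CPM in normoxia and from 109 over 119 to 174 CPM under IgG, a log2 difference of 0.16 that did not pass the test (edgeR, FDR = 0.161). Ndufaf1 ranged from 7.34 over 8.26 to 15.2 CPM in normoxia and from 6.55 over 7.76 to 9.56 CPM under IgG (log2 difference -0.22, edgeR FDR = 0.167). Both genes overlapped between the arms.

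The broadly expressed complex IV genes overlapped widely between normoxia and IgG. Cox6a1, the partner of the muscle isoform Cox6a2, ranged from 80.9 over a median of 111 to 191 CPM in normoxia, from 98.2 over 112 to 162 CPM under IgG and from 77.1 over 103 to 177 CPM under APL-9796, with a log2 difference of -0.00 under IgG and a 95% interval from -0.24 to 0.23. Cox7b, a small subunit of complex IV, ranged from 30.7 over 42.9 to 85.04 CPM in normoxia and from 37.5 over 43.6 to 62.0 CPM under IgG (95% interval of the difference from -0.30 to 0.19). Cox7a2l, which is known to link complexes III and IV into supercomplexes, ranged from 103 over 115 to 226 CPM and from 101 over 120 to 138 CPM in the same arms (interval from -0.26 to 0.08). The highest normoxic value of all 3 genes was that of female normoxia 9. Atp5d, the delta subunit of ATP synthase, had the smallest p of its complex, with 61.9 over 85.0 to 124 CPM in normoxia, 81.5 over 88.2 to 132 CPM under IgG and a log2 difference of 0.11 (edgeR, FDR = 0.453). In that gene female normoxia 9 was the lowest normoxic library.

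The sign of this near-zero median depended on which libraries were in the fit. Without female normoxia 8 and 9, 49 of 52 genes were fitted above 0, with a median of 0.15 against 0.01 for all genes, 8 had an unadjusted p below 0.05 (24.6% of all genes), and Uqcrc1 joined Cox4i2 as higher (2 called). Without male APL-9796 5, male IgG 6 and female IgG 11, 42 of 52 were fitted below 0, with a median of -0.10, 4 had an unadjusted p below 0.05 (23% of all genes), and Cox4i2 was the 1 gene called. Since the sexes were fitted as separate groups, the same change can be read in each.

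With all libraries, the fitted change was above 0 in males for 50 of 52 genes, with a median of 0.18, and below 0 in females for 43 of 52, with a median of -0.18. In males no chain gene was called, against 3.1% of all genes (1.88% higher and 1.22% lower), and 1 of 52 had an unadjusted p below 0.05, against 13.1%. In females Cox4i2 was higher, against 7.23% of all genes, and 4 of 52 were lower, against 8.27%, while 20 of 52 had an unadjusted p below 0.05, against 31.6%. The 4 genes were Uqcrc2 (log2 difference -0.43, edgeR FDR = 0.0150), Cox7a2l (-0.37, FDR = 0.0334), Ndufc2 (-0.50, FDR = 0.0414) and Ndufs1 (-0.30, FDR = 0.0478). Without female normoxia 8 and 9 none of these 4 was called in females, 42 of 52 genes were fitted above 0 and the median was 0.11. In that fit 2.02% of all genes were called lower in females, against 8.27% in the reported fit. Without female IgG 11 the chain genes called lower in females numbered 11, without female normoxia 7 they numbered 20 and without female normoxia 10 they numbered 12. The share of all genes is not given for these fits, so their counts are not read as particular to the chain. In males, without male APL-9796 5, male IgG 6 and female IgG 11, 42 of 52 genes were fitted above 0, with a median of 0.13. The genes move together, so counts of signs in either sex are not 52 separate observations.

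The test of that sex difference called none of the 52 genes and 2 of all 15570 (0.0128%; 0.00642% higher and 0.00642% lower), with 21 of 52 at an unadjusted p below 0.05 (15.9% of all genes). The median sex difference was -0.35, female minus male, and without female normoxia 8 and 9 it was -0.08, with 2 of 52 at an unadjusted p below 0.05. Uqcrc2, the other core protein of complex III, ranged in females from 122 over a median of 147 to 254 CPM (female normoxia 9) in normoxia and from 110 over 121 to 141 CPM (female IgG 11) under IgG, and in males from 109 over 120 to 133 CPM and from 117 over 131 to 160 CPM. The arms overlapped in both sexes, and its sex difference was -0.58 with a standard error of 0.17 (edgeR, FDR = 0.148).

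The comparison of APL-9796 with IgG, which asks what the antibody changes under hypoxia, called no chain gene. It called 0 of all 15570 genes (0%) at FDR below 0.05 with edgeR, and 626 genes (4.02%) had an unadjusted p below 0.05; DESeq2 called 1 gene, which is no member. All 52 chain genes were nevertheless fitted below 0. Their median log2 difference was -0.17, against 0.00 for all genes, and the median half-width of their 95% intervals was 0.22. By complex the medians were -0.18 for complex I, -0.11 for complex II, -0.17 for complex III, -0.21 for complex IV and -0.13 for ATP synthase. The genes share libraries and move together within arms, so 52 fitted values of 1 sign are not 52 separate observations.

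At an unadjusted p below 0.05 were 6 chain genes: Cox8a, Ndufb6, Uqcrc1, Sdhd, Cox7b and Cox8h, each with FDR = 0.967 (edgeR), against the 4.02% of all genes. This count depended on the libraries and the model. It was 0 (2.56% of all genes) without male APL-9796 5, male IgG 6 and female IgG 11, and 22 (7.89%) without female normoxia 8 and 9, which are in neither arm compared but in the shared estimate of the spread. Left out alone, female IgG 11 gave 1, male IgG 6 gave 2, male IgG 4 gave 15 and male APL-9796 4 gave 27 (8.92%). Among these single omissions the share of all genes is given only for the last, so the other counts have no background beside them. With only the compared groups the count was 14 (6.86%), and with limma-voom and quality weights 35 (15.7%). None of these fits called a chain gene.

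Cox8a, the broadly expressed isoform of subunit VIII, ranged from 55.2 over a median of 60.9 to 94.0 CPM under IgG and from 43.8 over 52.05 to 72.7 CPM under APL-9796. Its log2 difference was -0.29 with a standard error of 0.11. Ndufb6, an accessory subunit of complex I, ranged from 20.7 over 26.8 to 39.3 CPM and from 17.1 over 21.8 to 36.3 CPM in the same arms (log2 difference -0.29). Sdhd, a membrane anchor of complex II, ranged from 60.3 over 76.3 to 99.995 CPM under IgG and from 60.9 over 66.3 to 75.1 CPM under APL-9796 (log2 difference -0.20). The arms overlapped in each of these genes. Atp5a1, the alpha subunit of ATP synthase, ranged from 352 over 384 to 512 CPM and from 329 over 359 to 430 CPM, with a log2 difference of -0.13 (edgeR, FDR = 0.967).

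The size of the shift depended on the libraries in the fit. Male IgG 6 and female IgG 11 had the highest mean chain level of the IgG arm (6.17 and 6.32 log2 CPM). Leaving them out therefore lowers that arm by itself, and the part of muscle or fat markers was not tested. Without male APL-9796 5, male IgG 6 and female IgG 11, 49 of 52 genes were still fitted below 0, but the median was -0.08 and none had an unadjusted p below 0.05. Leaving out 1 library at a time, the median ran from -0.22 (without male APL-9796 4) to -0.11 (without female IgG 11). The change did not differ between the sexes for any chain gene at FDR below 0.05 (edgeR, 0 of 15570 genes called), and 3 of 52 had an unadjusted p below 0.05, against 4.40% of all genes.

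**Figure D4:**
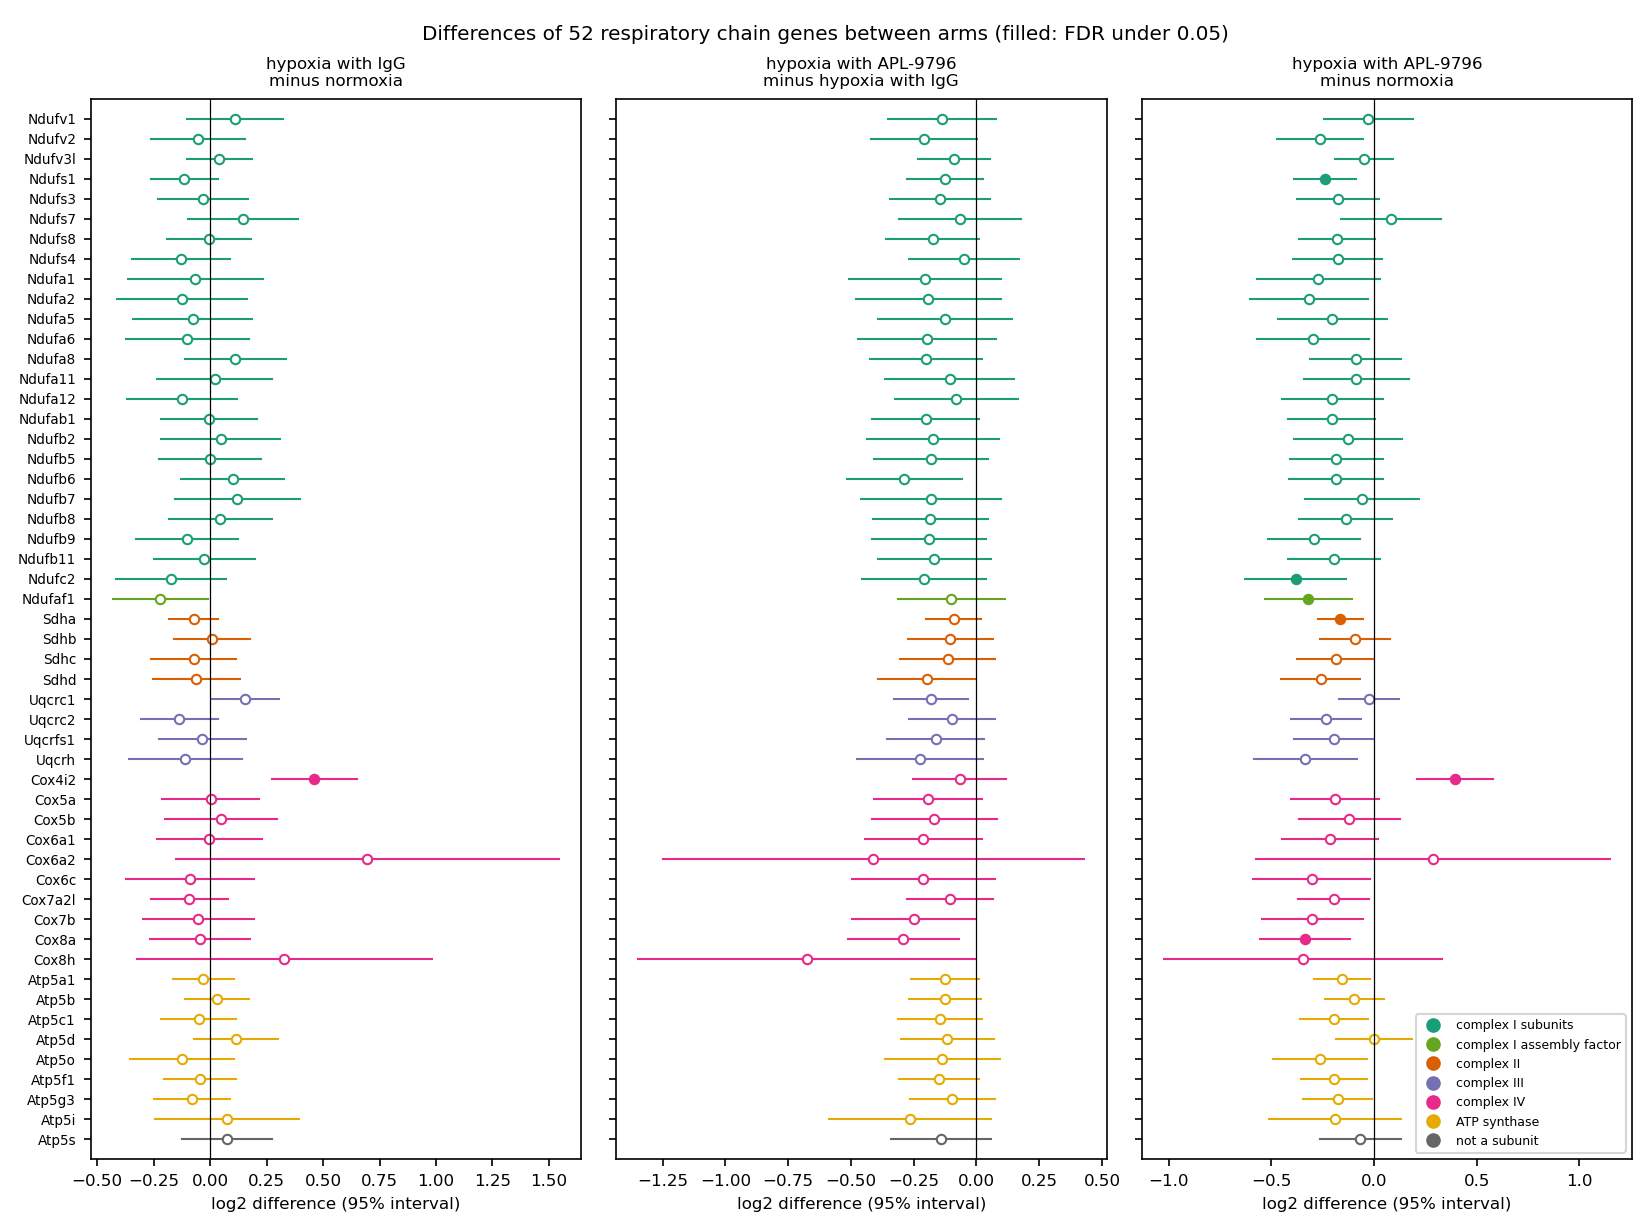
Log2 difference with its 95% interval (horizontal axes) for 52 chain genes in the 3 comparisons of arms, coloured by complex; filled points have FDR under 0.05 (edgeR). Cox4i2 is the filled point to the right of 0 in the 2 comparisons with normoxia, all points of the middle panel lie left of 0 with none filled, and 5 filled points lie left of 0 in the right panel.

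Against normoxia, the APL-9796 arm had 5 chain genes that fell, besides Cox4i2 that rose. Over all genes tested, 18% were called in this comparison, 8.93% of them lower and 9.08% higher as shares of all genes, so 5 of 52 lower lies near the background. The genes were Ndufs1, Ndufc2, Ndufaf1, Sdha and Cox8a, from complexes I, II and IV. The fitted difference was below 0 in 49 of 52 genes, with a median of -0.19 against -0.02 for all genes, and 22 of 52 had an unadjusted p below 0.05, against 32% of all genes. No chain gene separated these arms fully, against 0.816% of all genes.

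Ndufs1, the iron-sulphur subunit at the NADH side of complex I whose promoter is printed above, ranged from 75.4 (male normoxia 1) over a median of 85.1 to 125 CPM (female normoxia 9) in normoxia and from 62.1 (male APL-9796 4) over 76.1 to 92.0 CPM (male APL-9796 5) under APL-9796. Its means were 89.9 ± 13.95 and 75.8 ± 7.89 CPM (SD, n = 12 each), a log2 difference of -0.24 (edgeR, FDR = 0.0212). The ranges overlap, and under IgG the gene lay between the other arms at a median of 79.8 CPM.

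Ndufc2, an accessory subunit in the membrane arm of complex I, ranged from 37.3 over a median of 49.6 to 115 CPM in normoxia and from 39.1 over 43.0 to 72.1 CPM under APL-9796. The log2 difference was -0.38 (edgeR, FDR = 0.0252), while the highest value, in female normoxia 9, was more than any value of the other arms. With the replicate number as a block, which is not a pairing by design, the FDR of Ndufc2 was 0.0532. Ndufaf1, a factor that helps to assemble complex I, ranged from 5.82 over 7.53 to 9.88 CPM under APL-9796, a log2 difference of -0.32 from normoxia (edgeR, FDR = 0.0287).

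Sdha, the flavoprotein of succinate dehydrogenase, ranged from 190.4 over a median of 215 to 278 CPM in normoxia and from 181 over 196 to 225 CPM under APL-9796. Its means were 220.1 ± 22.3 and 196 ± 14.4 CPM (SD, n = 12 each), a log2 difference of -0.16 (edgeR, FDR = 0.0292). Cox8a ranged from 41.6 over 61.4 to 112 CPM in normoxia and lay lower under APL-9796 by a log2 difference of -0.34 (edgeR, FDR = 0.0278). The arms overlapped for both genes. In complex III and ATP synthase no gene passed: Uqcrc2 had a difference of -0.23 (edgeR, FDR = 0.0509) and Atp5f1, a stalk subunit of ATP synthase, of -0.19 (edgeR, FDR = 0.0790).

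These 5 calls depended on single libraries. Without female normoxia 8 and 9 none of the 5 was called, 34 of 52 genes were fitted below 0, the median was -0.03 and 3 had an unadjusted p below 0.05 (24.6% of all genes). Without male APL-9796 5, male IgG 6 and female IgG 11 that number was 22 (31.1%), and 5 genes were called lower, with Uqcrc2 in place of Ndufc2. The share of all genes called lower was 6.95% in that fit and 3.78% without female normoxia 8 and 9. Left out alone, male APL-9796 3 or male APL-9796 6 also ended all 5 calls, while without female normoxia 7, the normoxic library with the lowest chain level, 18 genes were called lower. The count of chain genes called lower was 1 without female normoxia 8 or without female normoxia 9, 9 without female normoxia 10 and 12 without male APL-9796 4. It was 2 or 3 without any one of male APL-9796 1, male normoxia 1, 3 or 5, or female APL-9796 7, 11 or 12. For the fits without 1 library the share of all genes called lower is not given, so these counts have no background beside them. Cox4i2 was called higher in every one of these fits. Of 8 type II markers listed, 5 were tested. In this comparison 5 of these 5 fell, against 8.93% of all genes, and under IgG 3 of 5 fell, against 6.19%. Female normoxia 8 and 9 had the highest sums of these markers. The part of type II cell content was not tested.

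The heart and muscle isoforms of complex IV varied between libraries more than between arms. Cox6a2 ranged from 0.691 (female normoxia 9) over a median of 3.72 to 10.1 CPM (female normoxia 8) in normoxia, from 1.64 (female IgG 9) over 4.44 to 25.2 CPM (male IgG 6) under IgG, and from 2.13 (female APL-9796 10) over 3.58 to 22.1 CPM (male APL-9796 5) under APL-9796. Cox8h ranged from 1.77 over 4.81 to 8.21 CPM (female normoxia 8), from 2.60 over 3.83 to 20.98 CPM (male IgG 6) and from 1.04 over 3.49 to 12.8 CPM (male APL-9796 5). The libraries with the highest values were those with the highest summed level of 7 heart muscle genes, 1250 CPM in male IgG 6, 754 CPM in female IgG 11 and 722 CPM in male APL-9796 5, against arm medians of 172 to 190.2 CPM. Male APL-9796 5 was also the library with 2677 CPM of skeletal muscle markers, against an arm median of 28.3 CPM, so in that library heart and skeletal muscle markers were high together. Summed fat markers were also highest in male IgG 6 and female IgG 11, at 754 and 427 CPM, while male APL-9796 5 had 176 CPM. The part of muscle or fat tissue in the isoform levels was not tested. The library with the lowest Cox6a2, female normoxia 9, had the lowest heart sum. The arms overlapped throughout.

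**Figure D5:**
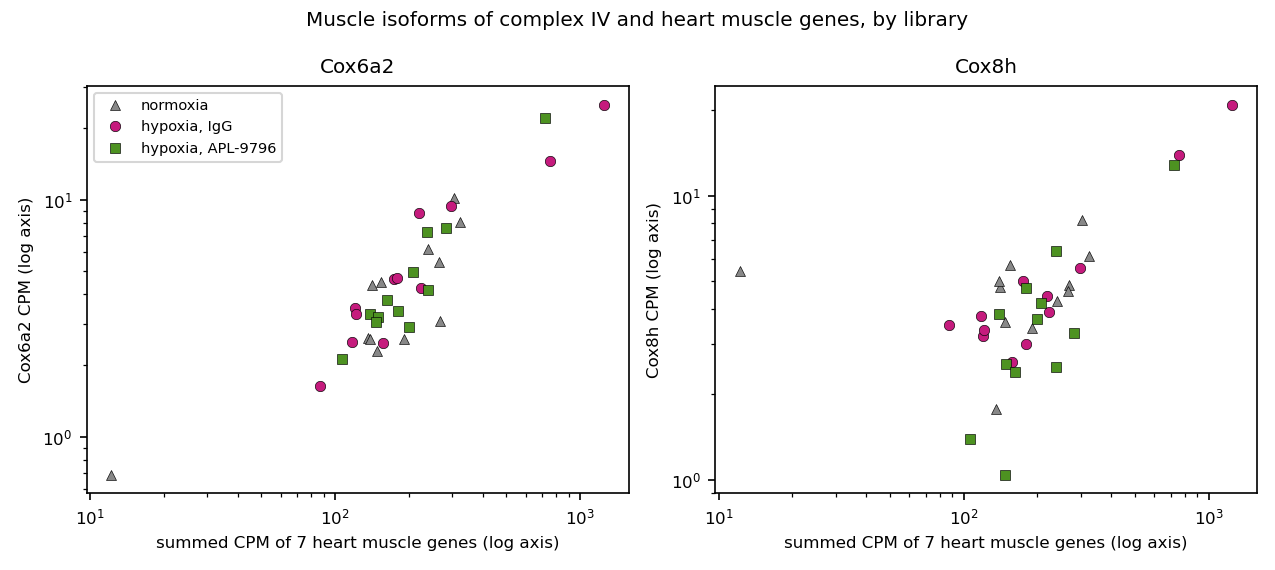
CPM of Cox6a2 and Cox8h (vertical log axes) against the summed CPM of 7 heart muscle genes (horizontal log axis) in 36 libraries, by arm. Male APL-9796 5, male IgG 6 and female IgG 11 lie at the upper right of both panels, and female normoxia 9 lies alone at the left with the lowest Cox6a2.

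The log2 difference of Cox6a2 was 0.70 under IgG with a 95% interval from -0.15 to 1.54 (edgeR, FDR = 0.298), and without male IgG 6 it was 0.30. For Cox8h it was 0.33 with an interval from -0.33 to 0.98 (edgeR, FDR = 0.551), and without male IgG 6 it was -0.04. The ratio of each muscle isoform to its broadly expressed partner, Cox6a2 to Cox6a1 and Cox8h to Cox8a, was compared between arms in 6 permutation tests (two-sided, 100000 resamples within sex). None differed, with the smallest raw p at 0.221 and adjusted p-values of at least 0.828. The log2 ratio of Cox6a2 to Cox6a1 was -4.93 ± 1.04 in normoxia, -4.46 ± 1.04 under IgG and -4.45 ± 0.80 under APL-9796 (SD, n = 12 each).

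No chain gene differed between females and males over the 3 arms at FDR below 0.05, against 257 of all genes (1.65%; 0.636% higher and 1.01% lower), in edgeR; 18.8% of all genes had an unadjusted p below 0.05. Atp5i, the e subunit of ATP synthase, had the smallest adjusted value, with a log2 difference of -0.39, female minus male (edgeR, FDR = 0.0939).

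Genes around the chain are given beside the shares of all genes tested. These were 6.31% higher and 6.19% lower under IgG. Under APL-9796 against normoxia they were 9.08% higher and 8.93% lower. Of 20 assembly factors outside the name rule, none rose and 2 fell under IgG: Coa5, a complex IV assembly factor, went from 49.9 ± 5.94 to 41.0 ± 5.35 CPM (SD, n = 12 each; log2 difference -0.28, edgeR FDR = 0.00893), and Sdhaf3, a complex II assembly factor, fell by 0.53 (edgeR, FDR = 0.0396). Coa5 also fell under APL-9796 against normoxia, by 0.25, as did Atpaf1, a factor for ATP synthase, by 0.18. Among 8 genes of the hypoxic control of mitochondria, Pdk1, the kinase that turns down pyruvate dehydrogenase, rose under IgG from 24.5 ± 3.89 to 33.8 ± 6.44 CPM (log2 difference 0.45, edgeR FDR = 0.000107) and was 31.03 ± 2.87 CPM under APL-9796 (SD, n = 12 each).

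None of 7 electron carrier genes, 9 genes of the citric acid cycle, 13 regulators of mitochondrial biogenesis or 8 mitochondrial channels and carriers was called under IgG. Over all genes, 12.5% were called. Under APL-9796 against normoxia, 18% of all genes were called. Here Etfdh, which feeds electrons from fat oxidation to ubiquinone, fell by 0.26, and Gpd2, the mitochondrial glycerol phosphate dehydrogenase, rose by 0.21. In the citric acid cycle Dld fell by 0.19 and Suclg1 by 0.25, and among the biogenesis regulators Tfam and Tfb2m, which act on mitochondrial DNA, fell by 0.23 and 0.21 while Pprc1 rose by 0.34 (edgeR, FDR of at most 0.0459 each). None of these genes was called between APL-9796 and IgG.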

How the data were processed

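Lung libraries, 36 in number, came as a table of raw read counts by gene that the authors deposited unnormalized, with a library sheet. What are called sequencing runs here were read from the pool and flow cell that the sheet names for the reads. The submitters' processing notes name DESeq2 1.24.0. Aligner, counter, strandedness and build: not given in the sources used here. Near-identical and overlapping genes are therefore uncertain. Libraries were grouped by arm and sex from the sample labels. Counts were filtered with filterByExpr, scaled by TMM and fitted in 1 edgeR 4.0.16 quasi-likelihood model of 6 group means (R 4.3.3); arms were compared as means over sexes, and IgG with normoxia also within each sex, with Benjamini-Hochberg adjustment over 15570 genes and a threshold of 0.05. The procedure was tested on simulated data. Alternatives used DESeq2 1.42.0, limma 3.58.1, other filters, sequencing run, a replicate block and left-out libraries. The members and lists were chosen with earlier results of these data known. Named by rule were members called in a comparison of arms or its sex difference, the member of each class with the smallest p in each comparison of arms, the tissue isoforms, up to 4 called genes per pathway list under IgG and the 6 genes most alike; others, such as the members called in females, the pericyte genes and the pathway genes called under APL-9796, were named after their values were seen. Same-numbered libraries of different arms did not deviate together (36 pairs, correlations from -0.22 to 0.25, 9 above 0.1), so numbers were not taken as pairs. Counting intervals were not used.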

Additional observations from a re-analysis of the deposited data

Results flagged for a closer look

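Of 144 groups of 6 libraries checked, over 19 genes and 5 complexes, 35 held a highest library far from the other 5 (a gap of more than 0.625 of the group's range). Chance flags about 1 in 20 groups, and the genes move together, so these are few libraries seen many times.

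Female IgG 11 was high in all 5 complexes: mean log2 CPM of 5.88 for complex I, 7.03 for complex II, 6.98 for complex III, 5.96 for complex IV and 7.39 for ATP synthase. In the same library stood apart Atp5d (131.5 CPM), Cox4i2 (48.5 CPM), Cox6a1 (162 CPM), Cox7b (61.9 CPM), Cox8a (94.0 CPM), Cox8h (13.96 CPM), Uqcrc1 (163 CPM), Atp5a1 (482 CPM), Ndufb6 (39.3 CPM), Atp5f1 (149.5 CPM) and Ndufc2 (66.4 CPM).

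Male APL-9796 4 was high in complex I (5.90) and in Atp5d (133 CPM), Atp5s (11.8 CPM), Cox4i2 (61.8 CPM), Cox6a1 (177 CPM), Cox7a2l (147 CPM), Cox8a (72.7 CPM) and Ndufc2 (72.1 CPM). Male IgG 6 was high in Cox6a2 (25.2 CPM), Cox8h (20.98 CPM), Ndufs1 (119 CPM), Sdha (252 CPM), Uqcrc1 (174 CPM) and Atp5a1 (512 CPM). Male APL-9796 5 was high in Cox6a2 (22.1 CPM) and Atp5f1 (126 CPM).

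The remaining 3 were Uqcrc1 in female normoxia 8 (153 CPM), Ndufaf1 in male normoxia 1 (9.75 CPM) and Ndufc2 in female APL-9796 7 (52.3 CPM).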

How the results depend on the processing

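Cox4i2 stayed higher in both comparisons with normoxia under every alternative run, with a log2 difference under IgG between 0.42 and 0.51. Leaving out 1 library at a time, members called higher under IgG ran from 1 to 2. In the same fits, members lower under APL-9796 against normoxia ran from 0 to 18. Members lower in the sex difference under IgG ran from 0 to 9 (without female normoxia 7). Members lower in females than in males over the 3 arms ran from 0 to 1. Shares of all genes in the fits without 1 library are not given here. Members lower under APL-9796 against normoxia, 5 in the reported fit, numbered 3 without a filter on low counts, 16 with limma-voom and quality weights, 1 with only the groups compared, 3 with sequencing run as a term, 1 in run A alone, 0 without female normoxia 8 and 9, and 2 without these and male APL-9796 5, male IgG 6 and female IgG 11 together (5 libraries, an alternative chosen after seeing the data). The shares of all genes called lower in these fits were 8.93%, 4.5%, 12.9%, 5.44%, 8.09%, 5.25%, 3.78% and 4.63%, in the same order. With limma-voom, 4 members were lower in the sex difference under IgG, against 1.36% of all genes. In the same fit 5 members were lower in females than in males over the 3 arms. The latter count was 5 with run as a term, 1 in run A, 1 without female normoxia 8 and 9 and 2 without the 5 libraries. Shares of all genes are not given for these alternatives in the comparison of females with males. Without female normoxia 8 and 9, 2 members were higher under IgG, and the medians of complexes II and III were 0.11 and 0.13. The counts within each sex under IgG were added after seeing the data. In females 4 members were lower in the reported fit, 1 without a filter, 7 with limma-voom, 0 with only the groups compared, 1 with the replicate block, 0 with run as a term, 0 in run A, 8 without male APL-9796 5, male IgG 6 and female IgG 11, 0 without female normoxia 8 and 9, and 0 without the 5 libraries. Shares of all genes called lower were 8.27%, 3.83%, 9.62%, 1.36%, 6.73%, 5.38%, 0.205%, 5.79%, 2.02% and 1.36%, in the same order. With 1 library left out, from 0 to 20 members were lower in females. Cox4i2 was not called in females in run A (0 higher). In males, 0 members were higher in the reported fit, 1 with at least 1 CPM in 12 libraries, DESeq2, limma-voom, the replicate block, run A or any of the sets of libraries left out, 2 with only the groups compared, and 0 to 1 with 1 library left out; none was lower in any fit. With the replicate block, counts were 1 higher and 0 lower under IgG, 0 for APL-9796 against IgG, and 1 higher and 4 lower for APL-9796 against normoxia. With that block, 5.39% of all genes were lower under IgG and 7.87% were lower under APL-9796 against normoxia. The difference between females and males over the 3 arms was not tested in that fit, since the block holds sex. The cause of these moves was not tested. Some differences that were not called changed sign. Under IgG, Cox6a1 (-0.00 in the reported fit) was 0.0038 with RLE size factors, 0.0018 without a filter, 0.0077 with at least 1 CPM in 12 libraries, 0.0042 with DESeq2, 0.092 with limma-voom, 0.0093 with only the groups compared, 0.017 with the replicate block and 0.016 with run as a term. Without female normoxia 8 and 9 the values under IgG were 0.21 for Cox6a1, 0.087 for Cox7a2l, 0.16 for Cox7b and 0.17 for Cox8a, and without the 5 libraries 0.14, 0.070, 0.060, 0.082 and, for Cox8h, -0.11. With limma-voom, Cox7b was 0.013, Cox8a 0.029 and Cox8h -0.028; Cox8h was -0.31 without male APL-9796 5, male IgG 6 and female IgG 11, and Atp5s was -0.014 in run A. Leaving out 1 library at a time, the ranges were -0.063 to 0.082 for Cox6a1, -0.13 to 0.0014 for Cox7a2l, -0.11 to 0.041 for Cox7b, -0.11 to 0.055 for Cox8a and -0.042 to 0.45 for Cox8h. For APL-9796 against normoxia, Atp5s was 0.010 without female normoxia 8 and 9, 0.014 without the 5 libraries, and -0.11 to 0.00094 with 1 library left out.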
